A study of Sus scrofa with 36 samples.

Results

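The genes described here encode 5 secreted proteases of the ADAMTS family (ADAMTS1, ADAMTS2, ADAMTS5, ADAMTS9 and ADAMTS12), 2 proprotein convertases (PCSK5 and PCSK6) and the extracellular matrix protein 1 (ECM1). They were chosen by gene symbol, and all 8 symbols were found among the 12253 genes of the deposited table, in which 8320 Ensembl identifiers could be given a symbol. ADAMTS12, PCSK5 and PCSK6 had been singled out from co-expression and from correlations with fat and glucose traits in these same pigs, and ECM1 belongs to another co-expression module of the study. Earlier results on the groups were also known when the set was drawn up. Differences between the groups and correlations among or with those 4 genes are therefore given as a description and not as independent evidence.

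The samples were subcutaneous adipose tissue from 36 F2 pigs of an intercross between Göttingen Minipig boars and Duroc sows, 1 RNA-Seq library per pig. The pigs had been selected by the Obesity Index, a genetic risk value for obesity, and the labels place 12 in a Low (lean), 12 in a Mean (intermediate) and 12 in a High (obese) group. The lean group held 7 males and 5 females, and the intermediate and the obese group held 6 of each. The groups differ by a genetic index within 1 cross, and neither the labels nor the methods name a treatment. The pigs were slaughtered at a similar body weight, so the lean pigs were older than the others. Age and group therefore cannot be told apart, and full sibs within a group could not be identified.

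ADAMTS proteases are secreted as inactive precursors and cut large components of the extracellular matrix. ADAMTS1, ADAMTS5 and ADAMTS9 cleave the proteoglycans versican and aggrecan, ADAMTS2 removes the amino-terminal propeptide of fibrillar procollagens, and ADAMTS12 cleaves cartilage oligomeric matrix protein. Convertases of the furin type cut precursors after basic residues, and ADAMTS precursors, growth factors of the TGF-beta family and matrix metalloproteinases are among the proteins they process. ECM1 is a secreted glycoprotein that binds perlecan and fibulins and inhibits MMP9. In adipose tissue, remodelling of the matrix accompanies the enlargement of fat cells.

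Between 8735839 and 11755925 reads per pig were recovered from the deposited log2 values, with a median of 10496910 over all pigs and similar medians in the groups. Values per pig are given below as normalized counts, that is, recovered reads divided by the size factor of the library. They are not corrected for gene length, so levels of different genes are not compared. Every one of the 8 genes was measured in every pig, the lowest value being 20 reads for PCSK5 and the highest 6524 reads for ADAMTS2. The fat cell markers PLIN1, LIPE, CIDEC, PNPLA2 and PLIN4 had a summed normalized count of 29240 to 103400 per pig, and the 4 B cell and 6 skeletal muscle markers looked for had no row that could be used. In bulk tissue, fewer cells of a type and less RNA per cell cannot be told apart.

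Across the 36 pigs all 8 genes varied more than most genes of the table. PCSK5 had an SD of 0.83 on the log2 scale, which is larger than that of 94.0% of the genes, and PCSK6 had 0.79 (93.2%). The SD was 0.72 for ECM1 (90.6%), 0.71 for ADAMTS5 (90.3%) and 0.65 for ADAMTS12 (87.2%). The lowest values were 0.53 for ADAMTS9, 0.51 for ADAMTS2 and 0.51 for ADAMTS1, at the 78.5, 77.0 and 76.6 percentiles of the table. These SDs include counting error, and PCSK5 and PCSK6 had the fewest reads of the set.

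**Figure D1:**
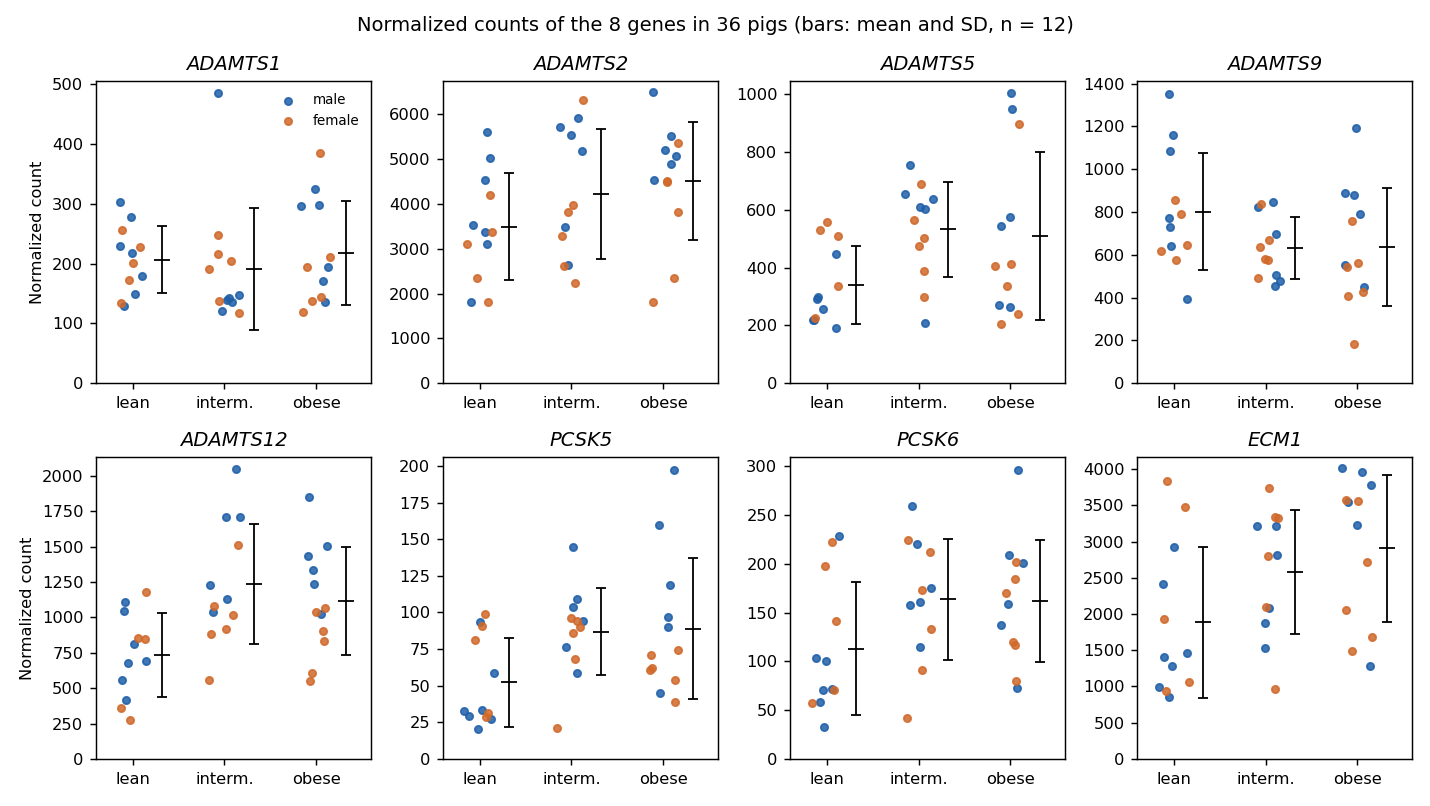
Normalized count (recovered reads divided by size factor, linear axes from 0) of each of the 8 genes in every pig, by group, with males in blue and females in orange and bars for the group mean and SD (n = 12). The groups overlapped for every gene, and the obese values of PCSK5 all lay above the lean median of 33.0.

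The question put to these genes was whether their expression in fat differed between lean, intermediate and obese pigs. Of the 8 genes, 6 (ADAMTS2, ADAMTS5, ADAMTS12, PCSK5, PCSK6 and ECM1) had higher mean counts in both other groups than in lean pigs, ADAMTS9 had lower means, and ADAMTS1 had similar ones. None of the 8 differences between obese and lean pigs passed the Benjamini-Hochberg (BH) correction at 0.05 in limma, with group and sex as terms. Over all genes measured, 5 passed, or 0.0408%, a number that ran from 1 to 292 with each pig left out (292 without lean replicate 2 and 204 without lean replicate 8). At an unadjusted p under 0.05, 5 of the 8 genes were higher in obese pigs (ADAMTS2, ADAMTS12, PCSK5, PCSK6 and ECM1) and none was lower, against 6.81% higher and 7.88% lower (14.7% together) over all genes. A difference above 0 was found for 7 of the 8 genes and for 47.5% of the table. Since the groups had been seen when the set was chosen, nothing is read from these counts.

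Among the proteases that cleave versican, ADAMTS5 had normalized counts from 192.5 to 559.2 in lean pigs with a median of 295.5. The intermediate pigs ranged from 210.2 to 754.6 with a median of 584.1, and the obese pigs from 204.1 to 1006 with a median of 408.4. The obese group was thus spread over the whole range, with 3 pigs at or above 898.1 and 4 at or below 271.0. Group means were 340.3 ± 134.6 (SD, n = 12), 532.5 ± 163.6 and 508.8 ± 291.1 in lean, intermediate and obese pigs. The fitted log2 difference from lean pigs was 0.46 for obese pigs (standard error 0.268, limma BH-adjusted p = 0.437) and 0.65 for intermediate pigs (limma BH-adjusted p = 0.324).

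ADAMTS9 showed the opposite order, with the highest values in lean pigs. The lean pigs had 394.3 to 1353 normalized counts with a median of 749.2, the intermediate pigs 452.5 to 847.2 with a median of 609.1, and the obese pigs 184.9 to 1192 with a median of 558.0. Of the 12 pigs with the lowest ADAMTS9 values 7 were obese and 1 was lean, although the ranges overlapped. The mean of 801.1 ± 273.4 (SD, n = 12) in lean pigs compared with 632.6 ± 144.0 and 636.3 ± 274.0 in intermediate and obese pigs. On the log2 scale obese minus lean was -0.39 (standard error 0.193, limma BH-adjusted p = 0.353). Endothelial markers had lower sums in obese pigs too: the summed count of PECAM1, TEK, KDR, FLT1 and TIE1 ran from 9569 to 17220 in lean and from 7615 to 12970 in obese pigs. This sum mainly follows PECAM1, which had means of 9516 in lean and 7895 in obese pigs. All 5 of these markers had a difference below 0, 3 of them with an unadjusted p under 0.05 (against 7.88% of all genes lower) and none past the BH correction in limma. The log2 differences were -0.51 for TIE1, -0.30 for FLT1, -0.28 for PECAM1 and -0.18 for TEK (limma BH-adjusted p = 0.0709, 0.258, 0.175 and 0.518), and their part in the ADAMTS9 values was not tested.

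ADAMTS1 did not order the groups. Its normalized counts were 128.7 to 303.6 in lean pigs (median 209.9), 116.7 to 485.6 in intermediate pigs (median 145.0) and 119.2 to 384.3 in obese pigs (median 194.0). The value of 485.6 belonged to a single intermediate male, and the other intermediate pigs lay at or below 247.9. Means were 206.7 ± 56.1 (SD, n = 12), 190.5 ± 101.8 and 217.4 ± 87.0. Obese minus lean was 0.01 on the log2 scale (standard error 0.205, limma BH-adjusted p = 0.983), which is within the spread between pigs.

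ADAMTS2, the procollagen N-proteinase, had 1819 to 5607 normalized counts in lean pigs (median 3382), 2240 to 6313 in intermediate pigs (median 3891) and 1823 to 6507 in obese pigs (median 4718). The lowest lean and the lowest obese pig therefore had nearly the same value, while 10 of the 12 obese pigs were above the lean median. Means were 3489 ± 1194 (SD, n = 12), 4224 ± 1442 and 4508 ± 1315. Obese minus lean was 0.40 on the log2 scale (standard error 0.180, limma BH-adjusted p = 0.290).

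For ADAMTS12 the lean pigs had 276.1 to 1179 normalized counts with a median of 751.2. The intermediate pigs had 560.2 to 2046 with a median of 1105, and the obese pigs 548.7 to 1847 with a median of 1052. The lean pigs made up 8 of the 12 lowest pigs and 1 of the 12 highest, and after the sex term every intermediate and every obese pig exceeded the lean median. At least 10 obese pigs above the lean median were found for 5 of the 8 genes and for 12.1% of the table. Against lean pigs the fitted difference, in log2 units, was 0.83 in the intermediate group (standard error 0.196, limma p = 0.000166, BH-adjusted p = 0.172) and 0.68 in the obese group (standard error 0.196, limma p = 0.00144, BH-adjusted p = 0.0960). These 2 differences share the lean pigs. Without lean replicate 8 the obese minus lean difference of ADAMTS12 was 0.74 and passed the correction (limma BH-adjusted p = 0.0453), and with any other pig left out it did not. Over its other alternatives the limma BH-adjusted p of ADAMTS12 ran from 0.0585 to 0.639, the latter in females alone.

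Of the convertases, PCSK5 had 20.3 to 99.2 normalized counts in lean pigs with a median of 33.0. Here 7 lean pigs lay between 20.3 and 33.2, and the other 5 lay between 59.0 and 99.2. The intermediate pigs ran from 21.4 to 144.9 with a median of 92.0, where the value of 21.4 belonged to 1 female and all others were at or above 58.7. The obese pigs ran from 39.1 to 197.5 (median 72.5), so each of them exceeded the lean median but most were within the lean range. Means were 52.2 ± 30.4 (SD, n = 12), 87.0 ± 30.0 and 89.1 ± 48.2 in lean, intermediate and obese pigs. The log2 difference from lean was 0.84 for intermediate (limma BH-adjusted p = 0.270) and 0.82 for obese pigs (standard error 0.296, limma BH-adjusted p = 0.170).

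PCSK6, a convertase that is held in the extracellular matrix, had 33.0 to 228.3 normalized counts in lean pigs with a median of 86.1. The intermediate pigs had 41.7 to 259.0 (median 167.4) and the obese pigs 72.9 to 296.5 (median 164.5). As for PCSK5, the lean group was split, with 8 pigs at or below 103.7 and 4 at or above 141.6. Means were 112.9 ± 68.3 (SD, n = 12), 163.7 ± 61.9 and 162.3 ± 62.5. Obese minus lean was 0.64 on the log2 scale (standard error 0.299, limma BH-adjusted p = 0.307), and that between intermediate and lean pigs was 0.63 (limma BH-adjusted p = 0.385).

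PCSK6 also has a second gene model in the table, ENSSSCG00000022203, which the module list of the study names PCSK6 and which the symbol table used here leaves without a symbol. Over the 36 pigs its values followed those of PCSK6 (ENSSSCG00000005785) with a Pearson's correlation of 0.960, a Spearman's rho of 0.933 and an r of 0.944 without the 2 pigs farthest from the median. The second model had means of 88.0 ± 51.1 (SD, n = 12), 128.6 ± 48.1 and 124.8 ± 40.0 in the lean, intermediate and obese group, and a log2 difference of 0.68 between obese and lean pigs (standard error 0.302, limma BH-adjusted p = 0.284). How the reads of the gene were divided between both models is not known, so the counts of PCSK6 are uncertain and the second model is not a further gene.

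ECM1 had 861.2 to 3831 normalized counts in lean pigs with a median of 1437. Intermediate pigs had 968.8 to 3735 with a median of 2808, and obese pigs 1284 to 4012 with a median of 3383. The lean pigs were again uneven, with 7 at or below 1466 and 2 at or above 3475. Means were 1883 ± 1038 (SD, n = 12), 2581 ± 856.0 and 2907 ± 1018. The log2 difference was 0.70 between obese and lean pigs (standard error 0.266, limma BH-adjusted p = 0.195) and 0.53 between intermediate and lean pigs (limma BH-adjusted p = 0.401). Macrophage markers had higher sums in obese pigs too: the summed count of CD68, CSF1R, MRC1, MSR1 and C1QA ranged over 1598 to 8419 in the lean group (median 2307), 2219 to 8268 in the intermediate group (median 5185) and 3625 to 9490 in the obese group (median 6080). All 5 markers had a difference above 0 between obese and lean pigs, with 0.74 for CD68 and 0.80 for CSF1R on the log2 scale, 4 with an unadjusted p under 0.05 (against 6.81% of all genes) and none past the BH correction in limma, and their part in the ECM1 values was not tested.

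For none of the 8 genes was a difference between obese and intermediate pigs detected. Obese minus intermediate ran on the log2 scale from -0.19 for ADAMTS5 to 0.22 for ADAMTS1, and none had an unadjusted p under 0.05, compared with 524 genes (4.28%) of the table. No gene passed the BH correction in limma in this comparison. In the comparison of intermediate with lean pigs, 4 of the 8 genes (ADAMTS5, ADAMTS12, PCSK5 and PCSK6) were higher at an unadjusted p under 0.05, against 5.71% of the table. No gene passed the BH correction of limma there either, while 1535 genes (12.5%) had an unadjusted p under 0.05 in either direction.

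The low values of several genes came from the same lean pigs. By normalized count, lean replicates 3, 5 and 6 were each among the 6 lowest of the 36 pigs for 6 of the 8 genes. Lean replicate 4 was so for 5 and lean replicate 7 for 4. By contrast, lean replicates 1, 2, 8, 10 and 12 were never among the 6 lowest. At the upper end, intermediate replicate 7, a male, was among the 6 highest pigs for 5 genes, and obese replicates 11 and 12, also males, were so for 4 each. Intermediate replicate 8, a female, was among the 6 lowest for 4 genes. Lean replicate 4 was also among the 6 highest for 2 genes. How often each pig took such a place over all genes of the table was not computed. These counts are therefore not read as a trait of the 8 genes.

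**Figure D2:**
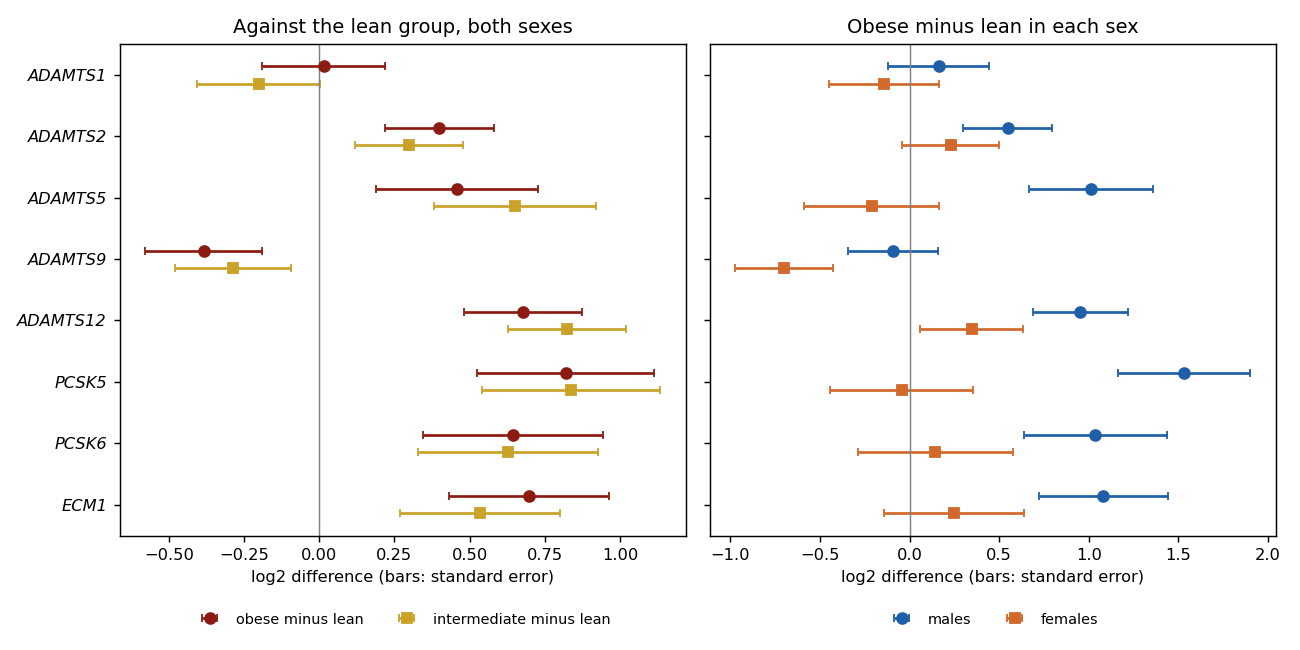
Log2 difference from the lean group, with standard errors, for each of the 8 genes. The left panel gives obese and intermediate pigs of both sexes, where ADAMTS9 lies below 0 in both, and the right panel gives obese minus lean in males and in females, where PCSK5 is at 1.53 and -0.04.

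Males and females were compared next, with results by sex already known when the genes were chosen. Males minus females was 0.52 on the log2 scale for ADAMTS12 (standard error 0.161, limma p = 0.00250, BH-adjusted p = 0.0727) and 0.44 for ADAMTS2 (standard error 0.147, limma p = 0.00554, BH-adjusted p = 0.103). ADAMTS9 differed by 0.32 (limma BH-adjusted p = 0.274), and the other genes by -0.03 to 0.22. None of the 8 genes passed the correction, which 268 genes (2.19%) passed in the whole table, and 2 of the 8 were higher in males at an unadjusted p under 0.05, against 8.01% of all genes. In obese pigs, males had 1397 ± 277.5 (SD, n = 6) and females 833.6 ± 216.0 (n = 6) normalized counts of ADAMTS12, and 5290 ± 677.7 and 3726 ± 1370 of ADAMTS2. The 7 fibroblast or progenitor markers had a median log2 difference of 0.59 between males and females, with 4 higher and 1 lower in males at an unadjusted p under 0.05, against 8.01% and 10.3% of all genes. DCN passed the correction (0.62, limma BH-adjusted p = 0.0222), PDGFRA had 0.64 and LUM 0.68, and the 2 markers below 0 were DPP4 (-0.97, limma BH-adjusted p = 0.174) and PI16 (-0.46, limma BH-adjusted p = 0.504). Of the 5 adipocyte markers 4 were lower in males at an unadjusted p under 0.05, against 10.3% of all genes, with LIPE (-0.55) and PNPLA2 (-0.37) past the correction (limma BH-adjusted p = 0.00534 and 0.0483). The part of these cell types in the ADAMTS12 and ADAMTS2 values was not tested.

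For all 8 genes the log2 value of obese minus lean was larger in males than in females. For PCSK5 the obese males had 118.1 ± 54.1 (SD, n = 6) and the lean males 42.2 ± 25.7 (n = 7) normalized counts, while obese females had 60.0 ± 12.6 (n = 6) and lean females 66.2 ± 33.6 (n = 5). The log2 differences were 1.53 in males and -0.04 in females, and their difference of 1.57 did not pass the correction (standard error 0.544, limma p = 0.00662, BH-adjusted p = 0.233). The obese males ran from 45.2 to 197.5 and the lean males from 20.3 to 93.6, so they overlapped, and the obese females, from 39.1 to 74.1, lay inside the range of the lean females.

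A similar pattern was measured for ADAMTS5. Obese males had 602.0 ± 320.4 (SD, n = 6) and lean males 275.2 ± 85.8 (n = 7) normalized counts, against 415.7 ± 251.0 (n = 6) and 431.4 ± 144.9 (n = 5) in females. Its log2 differences were 1.01 in males and -0.21 in females, and the difference between the sexes was 1.22 (standard error 0.511, limma p = 0.0226, BH-adjusted p = 0.314). For the remaining genes the male and female differences were 1.04 and 0.14 for PCSK6, 1.08 and 0.25 for ECM1, 0.95 and 0.35 for ADAMTS12, 0.55 and 0.23 for ADAMTS2 and 0.16 and -0.14 for ADAMTS1. ADAMTS9 had -0.09 in males and -0.70 in females, where obese females had 480.7 ± 191.7 (SD, n = 6) and lean females 696.7 ± 118.4 (n = 5) normalized counts. Its lower value in obese females had limma p = 0.0151 and BH-adjusted p = 0.210.

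Of all genes, 60.4% had a larger obese minus lean difference in males, and 2 of the 8 genes, PCSK5 and ADAMTS5, had an unadjusted p under 0.05 in this direction, against 9.95% of all genes (12.9% in either direction). Marker lists had such differences too: the value was above 0 for 7 of 7 fibroblast or progenitor markers (median 0.49), 5 of 5 endothelial markers (0.34) and 4 of 5 macrophage markers (0.72), and for none of 4 T or NK cell markers (-0.94), against a median of 0.09 over all genes. None of these markers passed the BH correction in limma, and their part in the values of the 8 genes was not tested. Only 1 gene of the table (0.00816%) passed the correction for a difference between the sexes, and it was none of the 8. After subtraction of each pig's median or division by the whole size factor, the share of the table was 50.4% and all 8 genes remained above 0. In males alone, 6 of the 8 genes were higher in obese pigs at an unadjusted p under 0.05, against 8.41% of all genes, and in females alone none was, against 5.83%. None of these differences within a sex passed the BH correction in limma. Each sex holds only 5 to 7 pigs per group. The order of sexes within the co-expression module of PCSK5 and ADAMTS12 was known beforehand.

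**Figure D3:**
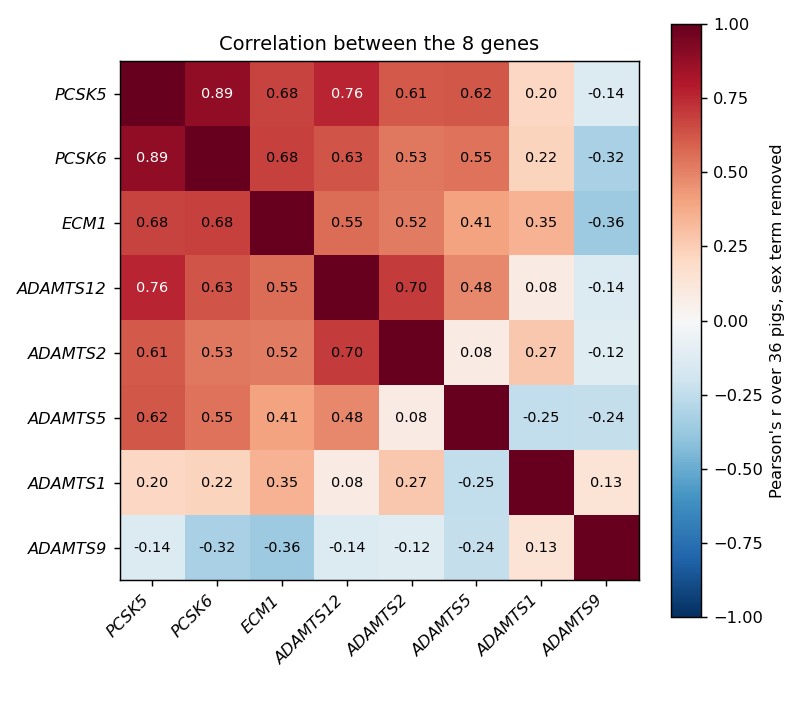
Pearson's correlation between each pair of the 8 genes over the 36 pigs after removal of a sex term, on a colour scale from -1 (blue) to 1 (red). PCSK5, PCSK6, ECM1 and ADAMTS12 were all positively correlated, from 0.55 to 0.89. ADAMTS9 had r below 0 with 6 of the other 7 genes, and none of its pairs passed the BH correction.

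Whether the genes varied together between pigs was examined over all 28 pairs, on log2 values after removal of a sex term. The correlations lay between -0.36 and 0.89 with a median of 0.378, and 21 of them were positive. The share of positive pairs over the whole table was not computed, so this count is not read as a trait of the set. The 6 pairs among ADAMTS12, PCSK5, PCSK6 and ECM1, which the study lists in its co-expression modules, had values of 0.55 to 0.89 and are a description only. PCSK5 and PCSK6 were the most closely related, with r = 0.888 and rho = 0.847. Within the lean, intermediate and obese groups of 12 pigs their r was 0.887, 0.882 and 0.828, and in males and females 0.891 and 0.895. The pair of ADAMTS12 and PCSK5 had r = 0.761 (rho = 0.716), with 0.683, 0.759 and 0.597 in the lean, intermediate and obese group.

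**Figure D4:**
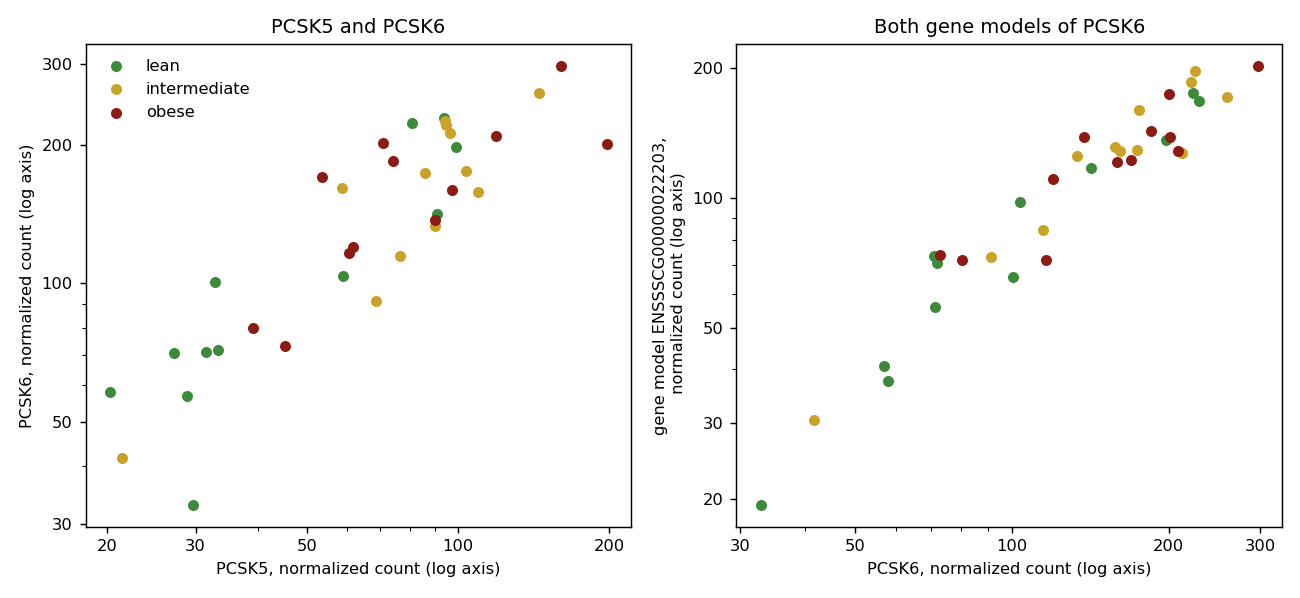
Normalized counts per pig on log axes, coloured by group, of PCSK5 against PCSK6 (left) and of PCSK6 against its second gene model (right). Most pigs at the lower end of both panels are lean, but 4 lean pigs with PCSK6 values from 141.6 to 228.3 lie among the intermediate and obese ones.

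ECM1 was less uniform. Over all pigs it had r = 0.676 with PCSK5 and 0.684 with PCSK6. In lean and obese pigs the correlation with PCSK5 was 0.831 and 0.717, whereas in intermediate pigs it was 0.0833. Without the 2 intermediate pigs farthest from the PCSK5 median it was 0.739. The correlation with PCSK6 was 0.122 in intermediate pigs, against 0.830 in lean and 0.843 in obese pigs. Without the 2 intermediate pigs farthest from the PCSK6 median it was 0.262. The pigs left out were chosen by each convertase's own values, so 0.739 and 0.262 are not compared. Intermediate replicate 8 had the lowest PCSK5 (21.4) and PCSK6 (41.7) and the highest ECM1 (3735) normalized counts of its group. In males ECM1 with PCSK5 had 0.894 and in females 0.333. The differences between these correlations were not tested.

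Of the other 22 pairs, 8 passed the BH correction over the 28 pairs (two-sided permutation tests with 100000 resamples). All 8 joined ADAMTS2 or ADAMTS5 to ADAMTS12, PCSK5, PCSK6 or ECM1, which were drawn from co-expression modules of these same pigs. PCSK5 and ECM1 had r above 0.6 with 501 and 513 of 12252 genes. The share of all gene pairs that would pass was not computed, so the 8 pairs are a description too. ADAMTS2 was correlated with ADAMTS12 (r = 0.698, permutation p = 1e-05, the smallest possible, BH-adjusted p = 7e-05, rho = 0.658), and r was 0.587 without the 2 pigs farthest from the ADAMTS12 median. It was also correlated with PCSK5 (r = 0.611, permutation BH-adjusted p = 0.00042, rho = 0.569), PCSK6 (r = 0.528, permutation BH-adjusted p = 0.00211, rho = 0.538) and ECM1 (r = 0.517, permutation BH-adjusted p = 0.00271, rho = 0.464). Without 2 pigs these were 0.563, 0.496 and 0.545. In each sex alone, ADAMTS2 passed with ADAMTS12 and PCSK5. With PCSK6 it had r = 0.299 in males (permutation BH-adjusted p = 0.351) and 0.810 in females (0.00084). With ECM1 it passed in neither sex (r = 0.453 in males and 0.586 in females, permutation BH-adjusted p = 0.0960 and 0.0569). The differences between the sexes were not tested.

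ADAMTS5 was correlated with PCSK5 (r = 0.621, permutation BH-adjusted p = 0.00036, rho = 0.549), PCSK6 (r = 0.545, permutation BH-adjusted p = 0.00182, rho = 0.518), ADAMTS12 (r = 0.477, permutation BH-adjusted p = 0.00672, rho = 0.487) and ECM1 (r = 0.405, permutation BH-adjusted p = 0.0291, rho = 0.391). Without 2 pigs these were 0.605, 0.490, 0.572 and 0.315. In the 19 males alone they were 0.749, 0.765, 0.617 and 0.629, and all passed. In the 17 females alone they were 0.342, 0.159, 0.282 and 0.0655, and none passed. The differences between the sexes were not tested. ADAMTS2 and ADAMTS5, which both followed PCSK5, had no detectable correlation with each other (r = 0.0839, rho = 0.0595, permutation BH-adjusted p = 0.636). With the group means removed as well, 12 of the 14 pairs past the correction still passed, and ADAMTS5 lost its call with ADAMTS12 (r = 0.334, permutation BH-adjusted p = 0.0933) and with ECM1 (r = 0.316, permutation BH-adjusted p = 0.108), the latter also after subtraction of each pig's median (r = 0.369) or with the whole size factor (r = 0.369). Without a sex term all 14 passed. With 12 pigs in each group, 5 pairs passed in the lean group, 3 in the intermediate group and 2 in the obese group.

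No pair with ADAMTS9 or ADAMTS1 passed by Pearson's r over the 36 pigs after the sex term alone. ADAMTS9 had r = -0.362 with ECM1 (permutation p = 0.0301, BH-adjusted p = 0.0562), which passed by rank (rho = -0.379, permutation BH-adjusted p = 0.0443) and was -0.430 without the 2 pigs farthest from the ADAMTS9 median. This call depended on the setting: by rank it was lost without the sex term (BH-adjusted permutation p = 0.0559), with group terms (0.0626), after subtraction of the median (0.0609) and with the whole size factor (0.0615), and by r it was gained in the last 2 settings (0.0477 and 0.0460). Its r with PCSK6 was -0.325 (permutation BH-adjusted p = 0.0879) and -0.464 without 2 pigs, and it passed by rank (rho = -0.368, permutation BH-adjusted p = 0.0497), which was lost in the same 4 settings (0.0615 to 0.0989). With group terms the correlations of ADAMTS9 with ADAMTS2, ADAMTS12 and PCSK5 were above 0 (0.00092, 0.062 and 0.020). ADAMTS1 had its highest correlation with ECM1 (r = 0.351, permutation BH-adjusted p = 0.0606, rho = 0.340), and this pair passed when the group means were removed as well (r = 0.416, permutation BH-adjusted p = 0.0251, rho = 0.483). In the lean group alone ADAMTS1 was correlated with PCSK6 (r = 0.771, permutation BH-adjusted p = 0.0215), but not by rank (rho = 0.734, permutation BH-adjusted p = 0.0536), and r was 0.535 without 2 pigs, against -0.382 in the intermediate group, and the difference was not tested. With ADAMTS5, its neighbour in the RefSeq annotation of Sscrofa11.1 apart from loci without a symbol, it had r = -0.250 (permutation BH-adjusted p = 0.206, rho = -0.261), which was -0.095 without 2 pigs.

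In the whole table the genes most like each of the 8 over the 36 pigs, after the sex term, were of different kinds. For ADAMTS2 they were the fibrillar collagen genes COL5A1 (r = 0.855), COL5A2 (0.832) and COL3A1 (0.816), the collagen-binding proteoglycan lumican, LUM (0.806), and ENSSSCG00000005750 (0.803). ADAMTS12 was closest to COL5A2 (0.775), PCSK5 (0.761), the microfibril gene FBN1 (0.738), ENSSSCG00000022673 (0.736) and PLD1 (0.736). These are descriptions over pigs whose libraries share a preparation but differ in depth, and carry no p-value. Up to 0.287 of the depth range stays in the log2 values.

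The genes most like PCSK5 were ENSSSCG00000026693 (0.913), MAMDC2 (0.907), the adhesion receptor gene ADGRD1 (0.898), PCSK6 (0.888) and ENSSSCG00000009255 (0.887). Beside its second model, PCSK6 was closest to ENSSSCG00000005784 (0.947), ENSSSCG00000000666 (0.939), the procollagen C-endopeptidase enhancer gene PCOLCE2 (0.922) and MAMDC2 (0.916). ECM1 was closest to EMILIN2 (0.917), which encodes an elastic fibre glycoprotein, F13A1 (0.900), the coagulation factor XIII chain also made by macrophages, the monocyte receptor gene CD14 (0.899), ENSSSCG00000017702 (0.882) and ENSSSCG00000013556 (0.878).

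ADAMTS5 was closest to RB1CC1 (0.827), an autophagy gene, the deacetylase gene SIRT1 (0.817), ENSSSCG00000003629 (0.795), the histone methyltransferase gene SETD2 (0.794) and SUGP2 (0.790). ADAMTS9 had ENSSSCG00000025426 (0.672), the hypoxia-inducible factor gene EPAS1 (0.614), the endothelial receptor genes FLT1 (0.607) and TEK (0.607) and ENSSSCG00000009409 (0.606). ADAMTS1 had ZFP30 (0.614), the proteoglycan gene BGN (0.610), ENSSSCG00000003235 (0.609), ENSSSCG00000024917 (0.594) and ENSSSCG00000029488 (0.593). The number of genes with r above 0.6 was 513 for ECM1, 501 for PCSK5, 385 for PCSK6, 250 for ADAMTS5, 107 for ADAMTS12 and 89 for ADAMTS2. For ADAMTS9 it was 6 and for ADAMTS1 3, of 12252 other genes.

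The wider protein families and the partners of these genes were followed in 7 lists. For these lists, measured means that a row could be given the gene's symbol, which held for 8320 of 12253 identifiers. A listed gene not found may still be in the table under an identifier without a symbol. Of 25 ADAMTS and ADAMTS-like genes 18 were measured, and none differed between obese and lean pigs after BH correction in limma. At an unadjusted p under 0.05, 2 were higher, both among the 8 genes, against 6.81% of the table, and the median log2 difference was 0.03, against -0.01 over all genes. The ADAMTS-like gene ADAMTSL4, which lies next to ECM1 in the RefSeq annotation of Sscrofa11.1, had 858.0 ± 561.3 (SD, n = 12) normalized counts in the lean group against 1167 ± 442.8 in the obese group, with a log2 difference of 0.60 (limma BH-adjusted p = 0.396). ADAMTS13, which cleaves von Willebrand factor, had -0.65 (limma BH-adjusted p = 0.433).

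Of 17 known substrates of ADAMTS proteases 10 were measured, with a median log2 difference of 0.28 between obese and lean pigs, against -0.01 over all genes. At an unadjusted p under 0.05, 3 of the 10 were higher, against 6.81% of the table, and none was lower. Versican, VCAN, had 1345 ± 1038 (SD, n = 12) normalized counts in the lean group against 2092 ± 1102 in the obese group, with a log2 difference of 0.93 (limma BH-adjusted p = 0.261). Fibronectin, FN1, and fibrillin-1, FBN1, both differed by 0.80 (limma BH-adjusted p = 0.334 and 0.317). Between the sexes, COL1A2 (log2 difference 0.97, limma BH-adjusted p = 0.00676) and decorin, DCN (0.62, limma BH-adjusted p = 0.0222), were higher in males. The summed count of 7 fibroblast markers, DCN among them, ran from 146000 to 552100 in lean and from 130600 to 653100 in obese pigs. This sum mainly follows COL3A1, which had means of 252400 in lean and 313600 in obese pigs, against 41390 and 40720 for DCN. COL3A1 is also on the substrate list.

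Only 3 of the 6 inhibitors of metalloproteases had a row with a symbol. RECK, a membrane-anchored inhibitor, had a log2 difference of -0.42 between obese and lean pigs (limma BH-adjusted p = 0.149), TIMP1 had 0.30 (limma BH-adjusted p = 0.622), and A2M had -0.18. Of 32 matrix metalloproteinases and ADAM proteases 17 were measured, with 4 higher and 3 lower in obese pigs at an unadjusted p under 0.05, against 6.81% and 7.88% of the table, and a median of -0.02. ADAM9 had 909.8 ± 221.6 (SD, n = 12) normalized counts in the lean group against 1312 ± 193.9 in the obese group, with a log2 difference of 0.53 (limma BH-adjusted p = 0.0709). ADAM8 had 0.81 and ADAM19 0.52 (limma BH-adjusted p = 0.312 and 0.216). The 3 lower ones, named after their values were seen, were MMP11 (-0.43, limma BH-adjusted p = 0.0740), MMP2 (-0.40, limma BH-adjusted p = 0.294) and ADAM15 (-0.23, limma BH-adjusted p = 0.291). In males ADAM12 was higher than in females by 1.27 (limma BH-adjusted p = 0.000116) and MMP23B by 0.49 (limma BH-adjusted p = 0.0483).

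Of the convertases and their inhibitors 6 of 11 were measured, namely FURIN, PCSK5, PCSK6, PCSK7, MBTPS1 and PCSK1N, with a median of 0.20 between obese and lean pigs. PCSK5 and PCSK6 were the 2 with an unadjusted p under 0.05, both higher, against 6.81% of the table. FURIN, the widely expressed member of the family, had 865.2 ± 117.0 (SD, n = 12) normalized counts in the lean group against 922.5 ± 112.8 in the obese group, and PCSK1N, the gene of a convertase inhibitor, differed by 0.29. Of 37 proteins that convertases process 20 were measured, 2 of them lower and none higher in obese pigs at an unadjusted p under 0.05, against 7.88% and 6.81% of the table, with a median of -0.09. ANGPTL4, an inhibitor of lipoprotein lipase that convertases cleave, had 2433 ± 1159 (SD, n = 12) normalized counts in lean pigs and 1379 ± 835.3 in obese ones, with a log2 difference of -0.90 (limma BH-adjusted p = 0.230). The endothelial lipase gene LIPG had 0.75 and NOTCH3 -0.34 (limma BH-adjusted p = 0.367 and 0.265). IGF1 was higher in males by 0.84 (limma BH-adjusted p = 0.00352) and TGFB2 by 0.61 (limma BH-adjusted p = 0.0457), and VEGFD was lower in males, with -0.81 (limma BH-adjusted p = 0.0235).

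Of 14 proteins linked to ECM1 9 were measured, 2 higher and 1 lower in obese pigs at an unadjusted p under 0.05, against 6.81% and 7.88% of the table, with a median of 0.27. Perlecan, HSPG2, had 9441 ± 2273 (SD, n = 12) normalized counts in the lean group against 11830 ± 1559 in the obese group, with a log2 difference of 0.34 (limma BH-adjusted p = 0.128). The laminin chain gene LAMB3 had 86.8 ± 21.9 in lean pigs and 48.9 ± 27.9 in obese ones, with a log2 difference of -0.99 (limma BH-adjusted p = 0.129). MMP9, the metalloproteinase that ECM1 inhibits, was not analysed here.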

How the data were processed

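RNA-Seq libraries of subcutaneous adipose tissue from 36 pigs were analysed, grouped by the biological state in the labels. Per the study's methods and processing notes, the authors removed adapters and low-quality reads and aligned the rest to Sscrofa10.2 with STAR. The authors took reads per gene from HTSeq, dropped genes with few reads and passed the size factors of DESeq to voom in limma. The values the authors deposited are on a log2 scale. They equal the log2 of reads plus 0.5 over the size factor plus 1, on the per-million scale of voom, so whole reads were recovered (100% of the values within 0.1), and up to 0.287 of the depth range stays in the values. The sex correction described in the methods is not in the table. No column was left unused.

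Tests used limma 3.58.1 in R 4.3.3 with a trend on intensity, all pigs in 1 fit, terms for group and for sex, and Benjamini-Hochberg correction over 12253 genes at 0.05. Sex differences in obese minus lean came from an interaction term. Correlations used Python 3.11.15 with numpy 2.4.6 and scipy 1.17.1. On simulated data for obese minus lean with 200 genes changed by 1 on the log2 scale among 12253, 175 (87.5%) were recovered with 4 false calls. The simulated noise was independent between genes, and the planted change was larger than the obese minus lean difference of any gene described here. That share is therefore not the power for these genes.

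The 8 genes and the lists were chosen with earlier results of these data known. Named were all 8 genes, from each list genes past the threshold and the 3 with the largest obese minus lean difference, and the 5 genes most like each member. FURIN, MMP2, MMP11, ADAM15 and some markers were added after their values were seen. Summed marker counts are given for adipocyte, fibroblast, endothelial and macrophage markers. Sequences of the genes were not used here. Each pig is 1 biological replicate, and lanes, litters and single traits were not analysed here. Alternatives were a fit without sex or without the trend, each sex alone, the lean and obese pigs alone, removal of the lowest 25% of genes, centring of each pig on its median and each pig left out. The whole size factor and voom weights were chosen after seeing the data.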

Additional observations from a re-analysis of the deposited data

How the results depend on the processing

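None of the 8 genes passed the correction for obese minus lean under any alternative, except ADAMTS12 without lean replicate 8 (0.74). The number of genes called in the table between obese and lean pigs, 5 as reported, was 12 without the trend, 1 without the lowest 25% of genes, 9 after subtraction of each pig's median, 3 without the sex term, 17 with the lean and obese pigs alone, 2 in males, 21 in females, 9 with the whole size factor and 17 with voom weights. With each pig left out in turn it ran from 1 to 292, and it was 292 without lean replicate 2, 204 without lean replicate 8, 43 without lean replicate 10, 27 without obese replicate 8, 22 without lean replicate 12 and 20 without intermediate replicate 6. The cause was not tested. The number for the sex difference in obese minus lean, 1, was 2 without the trend, 0 after subtraction of the median and 0 with the whole size factor, where 1449 and 1456 genes had an unadjusted p under 0.05 in limma.

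In females alone the obese minus lean difference reversed for ADAMTS1 (-0.14), ADAMTS5 (-0.21) and PCSK5 (-0.044). With each pig left out it ran from -0.071 to 0.077 for ADAMTS1, 0.31 to 0.48 for ADAMTS2, 0.34 to 0.56 for ADAMTS5, -0.48 to -0.26 for ADAMTS9, 0.59 to 0.80 for ADAMTS12, 0.70 to 0.95 for PCSK5, 0.50 to 0.78 for PCSK6 and 0.61 to 0.82 for ECM1. PCSK5 is among the lowest 25% of genes and was not in that filter's fit.

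Of the 28 correlations, 14 passed, and 5 did so in the lean group alone, 3 in the intermediate group and 2 in the obese group, where fewer pigs enter. In the 19 males 12 passed and in the 17 females 6, and this difference was not tested. In 46 cases a pair that passed kept its direction and no longer passed, mostly within a group or a sex, and in 4 cases a pair passed only under the alternative. The sign of 1 pair that passed, ADAMTS5 with ECM1, reversed in intermediate pigs (-0.149). The other reversals were in pairs that did not pass. In lean pigs they were ADAMTS1 with ADAMTS5 (0.325) and ADAMTS9 with ADAMTS12 (0.143), ADAMTS2 (0.316) and PCSK5 (0.122). In intermediate pigs they were ADAMTS1 with ADAMTS12 (-0.211), PCSK5 (-0.143) and PCSK6 (-0.382), and ADAMTS2 with ADAMTS5 (-0.0065). In obese pigs they were ADAMTS9 with ADAMTS12 (0.263) and ADAMTS2 with ADAMTS5 (-0.164). With group terms they were ADAMTS9 with ADAMTS12 (0.0623), ADAMTS2 (0.00092) and PCSK5 (0.0204), and ADAMTS2 with ADAMTS5 (-0.0433). Without the sex term they were ADAMTS9 with ADAMTS12 (0.0011) and ADAMTS2 (0.0293), in males ADAMTS12 with ADAMTS1 (-0.0442) and ADAMTS2 with ADAMTS9 (0.157), and in females ADAMTS2 with ADAMTS5 (-0.0777). In 367 further cases of single pairs, of the other contrasts of the 8 genes and of the second PCSK6 model, with no single pig left out, direction and side of the threshold were kept. No paired analysis was possible because the labels give each pig a number of its own.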
